A study of Mus musculus with 23 samples.

Results

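The T cell receptor complex and its coreceptors were followed through 10 genes, Cd3d, Cd3e, Cd3g, Cd247, Trat1, Cd8a, Cd8b1, Cd4, Cd28 and Cd2, on Affymetrix mouse expression arrays. Members were the probe sets whose platform annotation named one of these genes and no other. All 10 genes were measured, through 16 of the 22626 probe sets, and 6 of the genes had 1 probe set. The study profiled 23 arrays in 6 groups to compare gene programs under the chromatin regulators Snf5 and Ezh2 and in tumours that lack Snf5. Smarcb1 encodes Snf5, a core component of the nucleosome remodeller SWI/SNF, and Ezh2 is the methyltransferase of the Polycomb complex PRC2.

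The comparison of main interest set 5 arrays of Snf5-deficient lymphoma cells, purified as CD8+ T cells, against 6 arrays of purified wild-type CD8+ T cells, both from animals aged 10 to 15 weeks. The remaining arrays were of E13.5 mouse embryonic fibroblasts (MEFs), 3 Ezh2-deficient, 3 deficient in both Snf5 and Ezh2, and 3 wild-type arrays named as controls for each of these. The design text describes the MEF alleles as conditionally inactivated. The sources used here do not give the Cre driver, the strain or the number of mice behind the lymphomas, nor any deletion or treatment that controls and mutants share. Samples are titled as biological replicates, but nothing says that each came from a separate animal or culture, so a p-value here covers the spread between these samples, which may be technical.

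The labels were first set against Smarcb1. Its probe set 1416045_a_at read 8.30, 8.49, 5.81, 5.64 and 8.67 in lymphomas 1 to 5, against 10.38 to 11.48 in the wild-type CD8 samples, on the log2 scale of the RMA intensity used for all values here. This was a change of -3.65 ± 0.59 (SE, limma adjusted p = 0.00244), with lymphomas 3 and 4 lowest. The other Smarcb1 probe set, 1435856_x_at, read 8.65 to 9.98 in the lymphomas, against 10.12 to 12.59 in the wild-type CD8 samples, a smaller change of -1.95 (limma adjusted p = 0.0114). Wild-type replicates 1 and 6 stood apart from the other CD8 samples. The mean log2 value of 17 B cell genes was 7.14 to 7.73 in the lymphomas, against 11.17 and 11.04 in wild-type replicates 1 and 6 and 7.16 to 8.52 in wild-type replicates 2 to 5. The corresponding mean of 25 myeloid genes was 8.07 to 10.33 in the lymphomas, against 12.43 in both of those replicates and 6.70 to 8.19 in wild-type replicates 2 to 5. Wild-type replicates 2 and 5 were not free of other cells either, since the mean of 16 erythroid and platelet genes was 5.59 to 7.31 in the lymphomas, against 8.11 and 8.36 in those 2 replicates and 5.69 and 5.76 in replicates 3 and 4. The highest erythroid and platelet mean of the lymphomas, 7.31, lay above those of replicates 3 and 4. Their highest myeloid mean, 10.33, lay above all of wild-type replicates 2 to 5. Whether other cells gave these lymphoma values was not tested. Because of replicates 1 and 6, member results are given against all 6 wild-type samples and against replicates 2 to 5.

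The T cell receptor recognises peptide on MHC molecules but has no signalling tail of its own. It signals through the CD3 gamma, delta and epsilon chains and the zeta chain encoded by Cd247, whose cytoplasmic motifs are phosphorylated by Lck and then bind the kinase ZAP-70. The coreceptors CD8, made of an alpha and a beta chain, and CD4 bind MHC class I and class II and bring Lck to the receptor. CD28 and CD2 receive costimulatory and adhesive signals, and Trat1 encodes TRIM, a transmembrane adaptor associated with the receptor complex.

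In the lymphomas no probe set of the signalling chains or of the CD8 and CD4 coreceptors passed the test against wild-type CD8 cells, while Trat1 and Cd2 fell and 1 of 2 Cd28 probe sets rose by a small amount. Against all 6 wild-type samples, 3 of the 16 probe sets passed an adjusted p of 0.05 in limma, 1 higher and 2 lower, where 15.3% of all probe sets passed (8.47% higher and 6.83% lower). Against wild-type replicates 2 to 5, the 2 lower ones passed and none was higher, where 24.6% of all probe sets passed (11.8% higher and 12.8% lower). The share of members called was thus no larger than the share of all probe sets in the second comparison, and close to it in the first. The median log2 change over the 10 genes, each through its brightest probe set, was 0.23 against all wild-type samples, where all genes had a median of -0.07. Against replicates 2 to 5 the median was -0.17, where all genes had -0.11. These are bulk samples, so fewer cells of a type and less RNA per cell cannot be told apart.

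**Figure D1:**
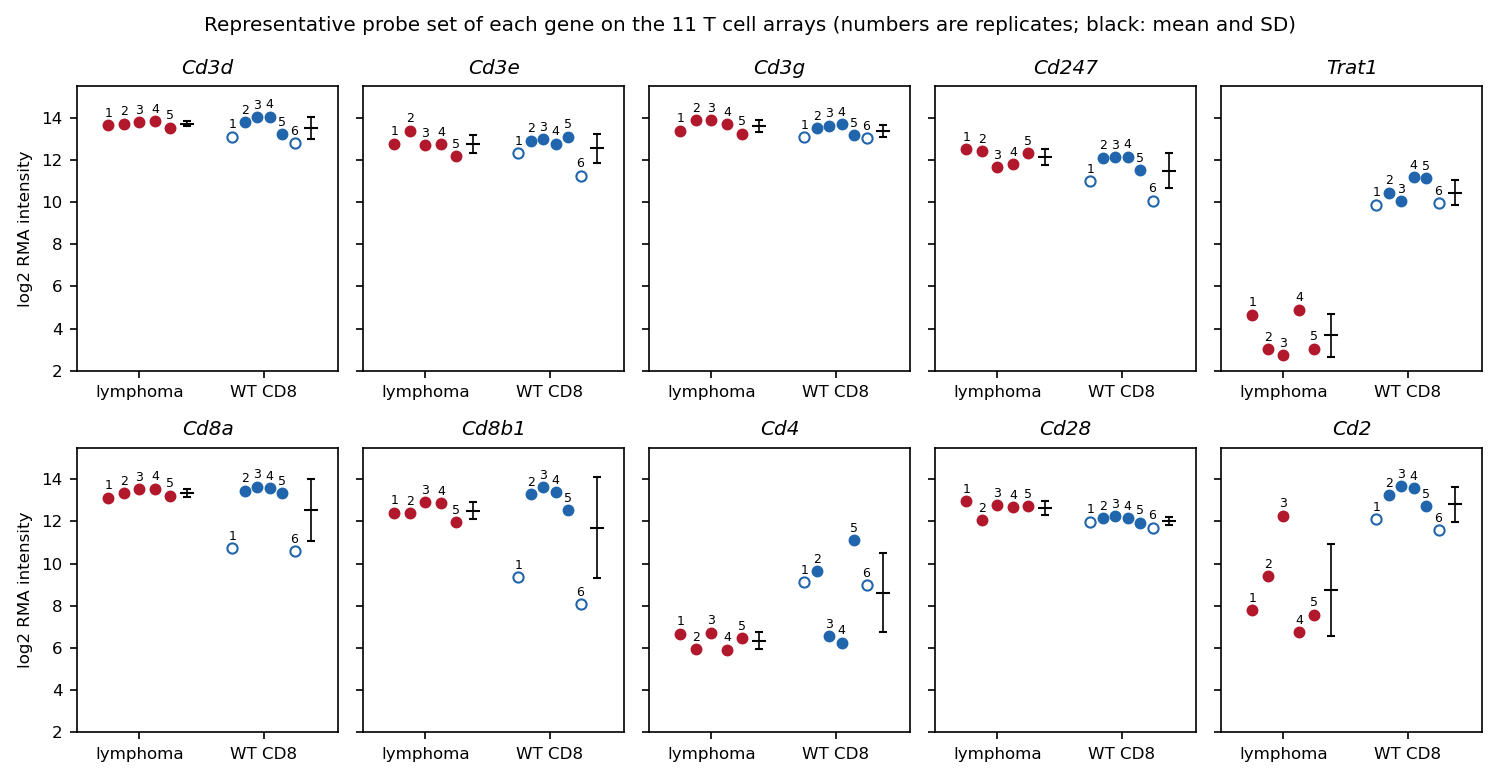
Log2 RMA intensity of the brightest probe set of each of the 10 genes in 5 Snf5-deficient lymphomas (left, red) and 6 wild-type CD8 samples (right, blue), with replicate numbers beside the points, the mean and SD in black, and open points for wild-type replicates 1 and 6. Trat1 lies at 2.74 to 4.91 in the lymphomas against 9.88 to 11.17 in wild-type samples, and the CD3 chains overlap.

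The CD3 chains come first among the signalling chains. Cd3d, which encodes CD3 delta, read 13.65, 13.72, 13.77, 13.84 and 13.53 in lymphomas 1 to 5, against 13.09, 13.79, 14.01, 14.05, 13.22 and 12.80 in wild-type replicates 1 to 6. Cd3e, which encodes CD3 epsilon, read 12.77, 13.38, 12.70, 12.73 and 12.17 in the lymphomas, against 12.31, 12.91, 12.98, 12.77, 13.10 and 11.26 in wild-type samples. Cd3g, which encodes CD3 gamma, read 13.38, 13.87, 13.88, 13.68 and 13.24 in the lymphomas, against 13.08, 13.51, 13.62, 13.71, 13.19 and 13.04 in wild-type samples. The groups overlapped for all 3 genes, and wild-type replicate 6 had the lowest value of each. The 3 genes are neighbours on chromosome 9 in the order Cd3g, Cd3d, Cd3e.

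The log2 change of Cd3d was 0.21 ± 0.24 (SE), with a 95% interval of -0.31 to 0.73 and a limma adjusted p of 0.575. That of Cd3e was 0.20 ± 0.33, with an interval of -0.54 to 0.93 and a limma adjusted p of 0.721. That of Cd3g was 0.25 ± 0.18, with an interval of -0.15 to 0.65 and a limma adjusted p of 0.380. Against wild-type replicates 2 to 5 the changes were -0.06, -0.19 and 0.10 in the same order, and the sign of Cd3d and Cd3e turned. The intervals in that comparison ran from -0.48 to 0.35 for Cd3d, from -0.69 to 0.31 for Cd3e and from -0.31 to 0.52 for Cd3g. A change of 1 on the log2 scale, in either direction, lay outside all 6 intervals.

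Promoters of 3 members are shown because they span the range of results, Cd3e and Cd8a with no change called and Trat1 with the lowest change of all genes. Each is the 250 bases before the gene's start, 5′ to 3′ on the gene's strand, from RefSeq on assembly GRCm38.p6. Capitals mark matches on either strand to the ETS core AGGAA, to the RUNX motif TGTGGT with its variant TGCGGT, to the GATA motif AGATAA with its variant TGATAA, to the E-box CANNTG and to the TCF/LEF motif CTTTGA with its variant CTTTGT. The Cd3e promoter is chr9:45009612-45009861 on the minus strand, the Cd8a promoter is chr6:71373177-71373426 on the plus strand and the Trat1 promoter is chr16:48772063-48772312 on the minus strand.
Cd3e: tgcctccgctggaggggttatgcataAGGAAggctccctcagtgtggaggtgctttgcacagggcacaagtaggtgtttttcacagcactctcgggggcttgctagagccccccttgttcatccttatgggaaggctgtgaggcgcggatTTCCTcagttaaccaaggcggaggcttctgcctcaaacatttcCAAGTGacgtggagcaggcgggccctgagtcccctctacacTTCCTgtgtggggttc
Cd8a: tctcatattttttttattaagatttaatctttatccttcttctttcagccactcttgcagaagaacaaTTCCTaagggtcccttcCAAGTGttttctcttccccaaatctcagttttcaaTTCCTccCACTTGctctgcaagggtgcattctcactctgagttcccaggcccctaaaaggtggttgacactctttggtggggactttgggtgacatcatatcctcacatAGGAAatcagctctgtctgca
Trat1: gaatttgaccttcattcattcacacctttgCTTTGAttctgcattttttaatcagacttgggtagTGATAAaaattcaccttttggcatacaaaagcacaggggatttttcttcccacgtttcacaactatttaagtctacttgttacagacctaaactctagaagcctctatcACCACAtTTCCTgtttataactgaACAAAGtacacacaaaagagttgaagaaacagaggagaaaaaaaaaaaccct
Of the 32851 promoters in the table, 60.3% held the ETS core, 18.6% the RUNX letters, 16.6% the GATA letters, 66.2% an E-box and 27.6% the TCF/LEF letters. The Trat1 promoter held 1 ETS, 1 RUNX, 1 GATA and 2 TCF/LEF matches and no E-box. The Cd3e promoter held 3 ETS matches and 1 E-box, and the Cd8a promoter 3 ETS matches and 2 E-boxes, and no match overlapped another in these 3 promoters. The GC content was 57.2% for Cd3e, 42.8% for Cd8a and 35.2% for Trat1, where the median promoter had 52.4%. Such matches describe letters and say nothing of a factor's binding.

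Cd247, the zeta chain, was read by 4 probe sets, and none passed the test in either comparison. The brightest, 1426396_at, read 12.52, 12.42, 11.64, 11.80 and 12.33 in lymphomas 1 to 5, against 10.99, 12.10, 12.14, 12.15, 11.50 and 10.07 in wild-type replicates 1 to 6. Its log2 change was 0.65 ± 0.38 (SE), with a 95% interval of -0.18 to 1.48 and a limma adjusted p of 0.275. Lymphomas 1, 2 and 5 lay above all wild-type samples on this probe set, and lymphomas 3 and 4 lay below wild-type replicates 2, 3 and 4. Against replicates 2 to 5 the change was 0.17, with an interval of -0.36 to 0.70.

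The other Cd247 probe sets varied more. 1420716_at changed by 0.56 (limma adjusted p = 0.179), 1426079_at by 0.03 (0.970) and 1452539_a_at by 1.39 (0.245) against all wild-type samples. Wild-type replicate 6 read 5.88 on 1452539_a_at, where the other wild-type samples read 8.56 to 10.88 and the lymphomas 9.71 to 10.96. Against wild-type replicates 2 to 5 the changes of these 3 probe sets were 0.54, -0.44 and 0.52, and the smallest limma adjusted p was 0.227. The ratio of Cd247 to Cd3e, taken within each array, was higher in the lymphomas than in wild-type samples by 0.46 on the log2 scale. An exact two-sided permutation test of the 5 against 6 arrays did not separate this from 0 (p = 0.134, adjusted over 3 such pairs 0.201). Against replicates 2 to 5 the difference was 0.36 (exact permutation p = 0.317, adjusted 0.317).

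The variable segments of the receptor itself were read by few probe sets that name 1 gene, and these were picked for description after the annotation was seen. Trbv1, a beta chain segment, read 13.33 to 13.75 in the lymphomas, against 12.71 to 13.92 in wild-type samples. Its change had a limma adjusted p of 0.951, and of 0.208 against replicates 2 to 5. Trav9d-3, an alpha chain segment, was read by 5 probe sets, none of which passed against all wild-type samples. The bright 1426113_x_at read 13.10 to 13.68 in the lymphomas, against 12.32 to 13.96 in wild-type samples (limma adjusted p = 0.854). Of the 5, 2 fell against replicates 2 to 5, 1427766_at by 2.89 on the log2 scale (limma adjusted p = 0.000696) and 1452405_x_at by 0.43 (0.0463). Trav12n-1, another alpha chain segment, read 5.81 to 6.49 in the lymphomas, against 4.31 to 8.01 in all wild-type samples (limma adjusted p = 0.655) and 7.23 to 8.01 in replicates 2 to 5. It fell by 1.45 against replicates 2 to 5 (limma adjusted p = 0.00119). Trgv1, a gamma chain segment, read 3.74 to 5.74 in the lymphomas, against 6.54 to 10.43 in wild-type samples, and fell by 4.24 on the log2 scale (limma adjusted p = 0.0025). Trgv4, another gamma chain segment, changed by -2.43 on 1422189_x_at, -0.91 on 1427802_a_at and -2.55 on 1450521_a_at. None of these passed against all wild-type samples (limma adjusted p = 0.0540 to 0.0714) or against replicates 2 to 5 (0.0983 to 0.158). Segments of 1 family share sequence, so a probe set named for one can read others.

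Trat1, the TRIM adaptor, had the largest fall. Its probe set read 4.66, 3.04, 2.74, 4.91 and 3.06 in lymphomas 1 to 5, against 9.88, 10.44, 10.03, 11.17, 11.13 and 9.96 in wild-type replicates 1 to 6. Every lymphoma lay below every wild-type sample, which held for 4.91% of all probe sets, and by 4.98 on the log2 scale at the nearest pair. The log2 change was -6.76 ± 0.45 (SE, 108-fold lower, limma adjusted p = 1.44e-05), the lowest of the 12393 genes measured. Against wild-type replicates 2 to 5 it was -7.01 ± 0.51 (129-fold lower, limma adjusted p = 2.93e-05). On all 5 lymphoma arrays the value was among the lowest 25% of the array, so the fold is one against RMA values near the floor. Its adjusted p stayed below the threshold in all 19 alternative settings, with changes between -7.06 and -6.52. The gene lies on chromosome 16 between Morc1 and Retnlb.

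Among the wild-type samples Trat1 had an SD of 0.59. Wild-type replicates 1 and 6, with the high B cell and myeloid means, had the 2 lowest values, 9.88 and 9.96, while replicates 3 and 4 read 10.03 and 11.17. The part of other cells in these values was not tested. With wild-type replicates 3 and 4 alone as the controls, a choice made after the marker lists were seen, the change was -6.92 (limma adjusted p = 0.000806).

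**Figure D2:**
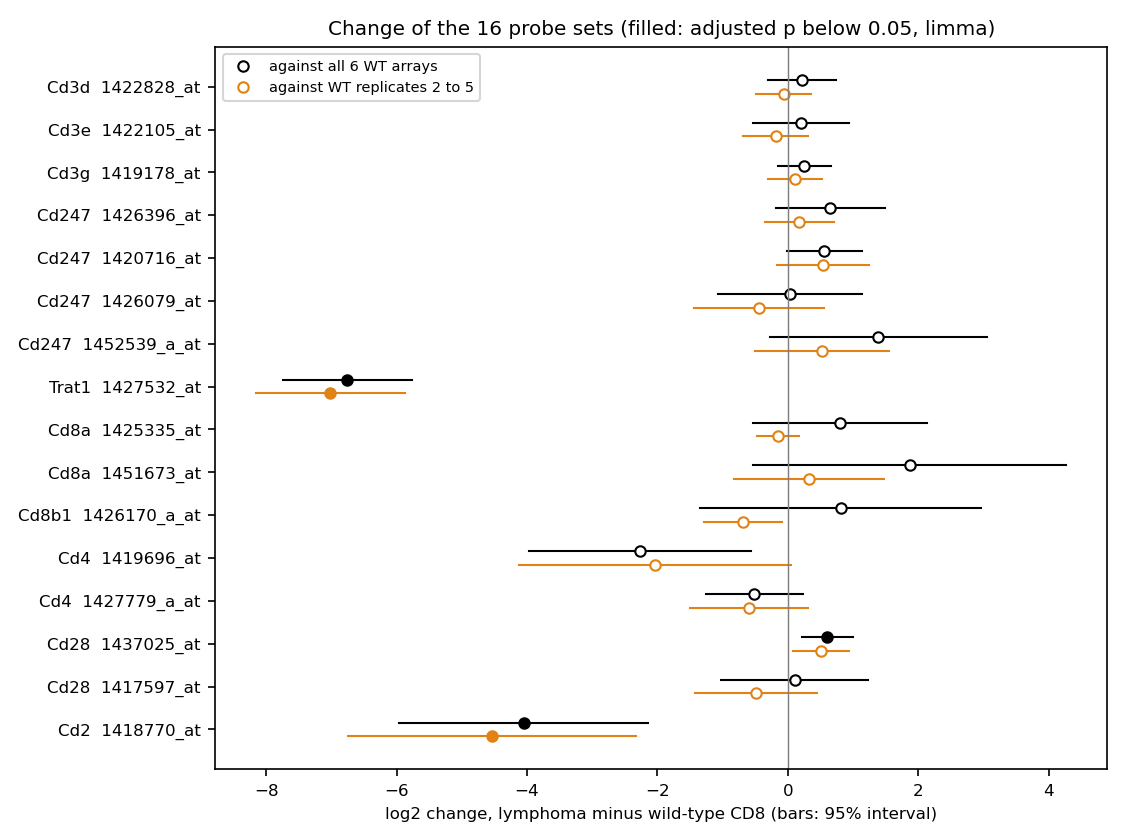
Log2 change of each of the 16 probe sets, lymphoma minus wild-type CD8, with its 95% interval, against all 6 wild-type samples (black) and against wild-type replicates 2 to 5 (orange); filled points have a limma adjusted p below 0.05. Trat1 lies at -6.76 and -7.01 and Cd2 at -4.05 and -4.54, while the intervals of Cd3d, Cd3e and Cd3g include 0 in both comparisons.

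The CD8 coreceptor was bright in every lymphoma. The Cd8a probe set 1425335_at, for the alpha chain, read 13.12, 13.33, 13.52, 13.55 and 13.21 in lymphomas 1 to 5, against 10.73, 13.45, 13.64, 13.58, 13.32 and 10.59 in wild-type replicates 1 to 6. Cd8b1, for the beta chain, read 12.41, 12.40, 12.90, 12.87 and 11.97 in the lymphomas, against 9.35, 13.28, 13.61, 13.39, 12.53 and 8.07 in wild-type samples. Wild-type replicates 1 and 6, the samples with the high B cell and myeloid means, were the lowest of all 11 for both genes. The part of those other cells in the CD8 values was not tested.

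The sign of the CD8 changes turned without these replicates. Against all wild-type samples Cd8a changed by 0.79 (95% interval -0.54 to 2.13, limma adjusted p = 0.405), and against replicates 2 to 5 by -0.15 (-0.47 to 0.17, limma adjusted p = 0.440). Cd8b1 changed by 0.81 (-1.35 to 2.96, limma adjusted p = 0.607), and against replicates 2 to 5 by -0.69 (-1.29 to -0.09, limma adjusted p = 0.0864). Without wild-type replicate 5, whose Cd8b1 value was the lowest of these 4, the second Cd8b1 change passed at -0.91 (limma adjusted p = 0.0215). Against replicates 3 and 4 alone it was -0.99 (limma adjusted p = 0.0380).

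The second Cd8a probe set, 1451673_at, differed from the first in some wild-type samples. It read 12.32, 12.72, 13.03, 12.94 and 12.13 in the lymphomas, against 8.73, 12.86, 13.19, 12.68, 10.49 and 6.61 in wild-type replicates 1 to 6. Replicate 5 was thus low on 1451673_at and not on 1425335_at. The change was 1.87 against all wild-type samples (limma adjusted p = 0.278) and 0.32 against replicates 2 to 5 (0.653). Cd8b1 and Cd8a are neighbours on chromosome 6, and the ratio of Cd8b1 to Cd8a within each array differed between lymphomas and wild-type samples by 0.01 on the log2 scale (exact two-sided permutation p = 0.981). Against replicates 2 to 5 that ratio was lower in the lymphomas by a difference of -0.54 (exact permutation p = 0.0476, adjusted over 3 pairs 0.143).

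Cd4 was low in every lymphoma and split the wild-type samples. Its probe set 1419696_at read 6.68, 5.95, 6.73, 5.92 and 6.47 in lymphomas 1 to 5, against 9.12, 9.63, 6.58, 6.25, 11.11 and 8.99 in wild-type replicates 1 to 6. Wild-type replicates 3 and 4 lay within the range of the lymphomas, and the other 4 lay above all of them. The log2 change was -2.27 ± 0.78 (SE, 95% interval -3.97 to -0.56, limma adjusted p = 0.0730). Against replicates 2 to 5 it was -2.04 (-4.13 to 0.04, limma adjusted p = 0.132). The change against all wild-type samples passed only without wild-type replicate 3 (limma adjusted p = 0.0374) or without replicate 4 (0.0263). Against these 2 replicates alone the change was -0.07.

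The wild-type samples with more Cd4 were those with more erythroid RNA. The erythroid and platelet mean was 7.98, 8.11, 8.36 and 8.10 in wild-type replicates 1, 2, 5 and 6, against 5.69 and 5.76 in replicates 3 and 4. This split was not particular to erythroid genes. H2-Aa, of MHC class II, read 12.75, 12.05, 12.08 and 12.57 in replicates 1, 2, 5 and 6, against 8.48 and 8.49 in replicates 3 and 4. Mpo, a myeloid gene, read 14.00, 11.99, 11.39 and 13.83, against 4.49 and 5.22. Other genes of the B cell and myeloid lists, such as Cd79b and Itgax, did not split this way. Cd40lg, which helper T cells carry when activated, read 4.70 to 5.76 in the lymphomas, against 8.36, 5.52, 5.45, 5.23, 5.64 and 6.85 in wild-type replicates 1 to 6. It was thus high in wild-type replicates 1 and 6, while replicates 2 and 5 lay within the range of the lymphomas. The part of other cells in the Cd4 values was not tested. The second Cd4 probe set, 1427779_a_at, read 4.51 to 5.03 in the lymphomas, against 4.44 to 6.59 in wild-type samples. It lay in the lowest 25% of the array on all 5 lymphoma arrays and 3 of 6 wild-type arrays. Its change was -0.52 against all wild-type samples (limma adjusted p = 0.330) and -0.59 against replicates 2 to 5 (0.291). Within each array Cd4 minus Cd8a averaged -7.00 in the lymphomas and -3.94 in wild-type samples, a difference of -3.06 (exact two-sided permutation p = 0.0476, adjusted over 3 pairs 0.143). Against replicates 2 to 5 that difference was -1.89 (exact permutation p = 0.151, adjusted over 3 pairs 0.226).

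**Figure D3:**
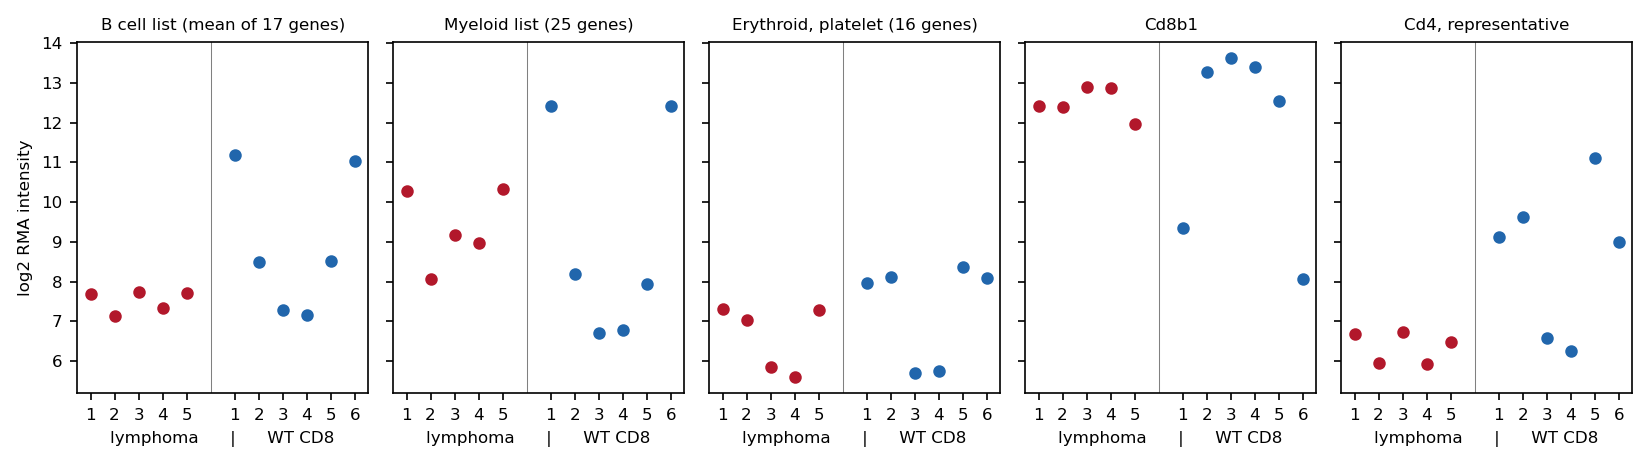
Mean log2 RMA intensity of the B cell, myeloid, and erythroid and platelet lists, and the log2 values of Cd8b1 and of the brighter Cd4 probe set, on the 5 lymphoma arrays (red) and the 6 wild-type CD8 arrays (blue) by replicate number. Wild-type replicates 1 and 6 are high in the B cell and myeloid means and low in Cd8b1, and Cd4 and the erythroid mean are low in wild-type replicates 3 and 4.

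Of the costimulatory and adhesion receptors among the 10 members, Cd2 fell and differed widely between tumours. Cd2 encodes the receptor for CD48 in mice. It read 7.79, 9.39, 12.27, 6.76 and 7.58 in lymphomas 1 to 5, against 12.12, 13.24, 13.66, 13.56, 12.71 and 11.58 in wild-type replicates 1 to 6. The log2 change was -4.05 ± 0.87 (SE, 16.6-fold lower, limma adjusted p = 0.0102), the 41st lowest of 12393 genes. Lymphoma 3 was the exception, above wild-type replicates 1 and 6 and below replicates 2 to 5, and the other 4 lymphomas lay below every wild-type sample.

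Against wild-type replicates 2 to 5 all lymphomas were lower in Cd2, which held for 13.6% of all probe sets. The change there was -4.54 ± 0.98 (limma adjusted p = 0.00997). The SD between samples was 2.18 in the lymphomas and 0.83 in the wild-type samples. Its adjusted p stayed below the threshold in all 19 alternative settings, with changes between -4.93 and -3.56 and limma adjusted p-values up to 0.0429. Unlike Trat1, it was not in the lowest 25% of the array on any lymphoma array.

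Cd28 encodes the main costimulatory receptor of naive T cells. Its brighter probe set, 1437025_at, read 12.97, 12.05, 12.78, 12.67 and 12.71 in lymphomas 1 to 5, against 11.98, 12.17, 12.24, 12.15, 11.93 and 11.71 in wild-type replicates 1 to 6. All lymphomas but the second lay above every wild-type sample. The change was 0.60 ± 0.18 (SE, 1.52-fold higher, limma adjusted p = 0.0407), and it was 0.51 with a limma adjusted p of 0.0796 against replicates 2 to 5. The call was kept without lymphoma 2 (limma adjusted p = 0.00886) or wild-type replicate 3 (0.0483). It was lost without any one of the other 9 samples, namely lymphomas 1, 3, 4 and 5 and wild-type replicates 1, 2, 4, 5 and 6, at limma adjusted p-values of 0.0560 to 0.0999.

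The other Cd28 probe set did not share this direction in both comparisons. 1417597_at read 11.75, 9.91, 11.12, 11.13 and 10.84 in the lymphomas, against 9.91, 11.50, 11.96, 11.90, 10.41 and 9.39 in wild-type samples. Its change was 0.10 (95% interval -1.03 to 1.23, limma adjusted p = 0.911) against all wild-type samples and -0.50 (-1.43 to 0.44) against replicates 2 to 5. On chromosome 1 the gene next to Cd28 is Ctla4. Ctla4, which encodes an inhibitory receptor for the same ligands, read 13.62, 12.22, 12.42, 9.68 and 13.24 in the lymphomas, against 8.79, 10.52, 10.65, 10.72, 9.68 and 8.02 in wild-type samples.

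The members were also ranked by how like their profile over the 11 arrays was to the mean profile of Cd3d, Cd3e and Cd3g, each centred on its own mean. The measure was the root mean square difference on the log2 scale, and 12393 genes were ranked. The most alike genes outside the members were Faap20 (0.141), Rdh13 (0.147), Crkl (0.148), Trbv1 (0.176) and Cfap97 (0.183). Cd3d, Cd3g and Cd3e, which make up that mean, ranked 4th, 5th and 119th, so their closeness is in part set by the measure. Of the members outside it, Cd247 ranked 4273rd and Trat1 12385th. Genes with little variation score well on this measure, because the CD3 chains varied little.

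Other genes of the receptor pathway, through 1 probe set a gene, are counted here against all 6 wild-type samples, where 9.07% of genes passed as higher and 7.71% as lower. Of 26 proximal signalling genes, 2 rose and 7 fell. Zap70, the kinase that binds phosphorylated CD3 and zeta chains, read 11.9 to 12.6 in the lymphomas, against 8.92 to 11.7 in wild-type samples. It rose by 1.72 on the log2 scale (limma adjusted p = 0.0367), and by 1.02 against replicates 2 to 5 (limma adjusted p = 0.0159). The other riser was Sh2d2a, an adaptor bound by Lck, at 1.72 (limma adjusted p = 0.00422). Txk, a Tec family kinase, fell by 4.68 (limma adjusted p = 0.0107). Pag1, a membrane adaptor that recruits the inhibitory kinase Csk, fell by 4.55 (limma adjusted p = 7.98e-05). Tec itself fell by 2.45 (limma adjusted p = 0.00181). Against replicates 2 to 5, where 13.2% of genes passed in each direction, 2 of the 26 rose and 10 fell.

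Of 18 other costimulatory and inhibitory receptors, 7 rose and 1 fell against all wild-type samples, with a median change of 0.59. Tnfrsf4, which encodes OX40, rose by 3.40 (limma adjusted p = 0.000889), and Tnfrsf9, which encodes 4-1BB, rose by 2.89 (limma adjusted p = 0.0114). Ctla4 rose by 2.51 (limma adjusted p = 0.0395), a call lost against replicates 2 to 5 (1.85, limma adjusted p = 0.0863). The 1 that fell was Cd7, an immunoglobulin superfamily receptor of T and NK cells, which read 4.94 to 6.80 in the lymphomas, against 10.3 to 13.1 in wild-type samples (-5.85, limma adjusted p = 0.000138). Of 20 T cell lineage factors none rose and 5 fell, led by Satb1 (-6.19, limma adjusted p = 0.000204), Eomes (-3.96, 0.00181) and Gata3 (-2.86, 0.0412), and 8 of the 20 fell against replicates 2 to 5.

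Of 11 thymocyte genes none rose and 6 fell, among them Dtx1 (-6.21, limma adjusted p = 7.98e-05), Dntt (-4.32, 0.000576) and Notch1 (-2.50, 0.000115). Of 12 NK cell markers, most of them receptors, none rose and 5 fell, led by Klrd1 (-6.45, limma adjusted p = 0.000516), Klrc1 (-4.07, 0.00104) and Klrk1 (-3.38, 0.0231). With replicates 2 to 5 as controls, 3 of the 12 fell and 1 rose, and the Klrk1 call was lost (limma adjusted p = 0.0528). The 1 that rose was Nfil3, a transcription factor, which read 10.17 to 11.67 in the lymphomas, against 6.15 to 8.73 in those replicates (3.00, limma adjusted p = 0.00308). Of 7 genes in a list chosen for CD4 lineage cells 2 rose, Il2ra (3.83, limma adjusted p = 0.0025) and Tnfrsf4, which the costimulatory list also holds. None of the 7 fell, while Foxp3 fell against replicates 2 to 5 (-0.57, limma adjusted p = 0.0484). Neither of 2 measured genes in the list of receptor chains passed, and Ptcra, the pre-T alpha chain, had the smallest p (0.11, limma adjusted p = 0.554). The Ptcra probe set read 3.68 to 4.00 in the lymphomas, against 3.51 to 3.88 in wild-type samples, near the floor. None of 4 gamma delta lineage genes passed, and Zbtb16 came nearest (-1.87, limma adjusted p = 0.0922).

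The marker lists of other cells gave few calls against all wild-type samples. Of 17 B cell genes 2 fell, Cd79b (-4.01, limma adjusted p = 0.000958) and Cd72 (-3.00, 0.00251), where 5 fell against replicates 2 to 5. The summed intensity of the B cell list was 10254 to 17944 in the lymphomas, against 5983 to 74843 in wild-type samples and 5983 to 26477 in wild-type replicates 2 to 5. None of 25 myeloid genes passed, with Ctss nearest (-1.44, limma adjusted p = 0.0531), but 13 rose against replicates 2 to 5. The summed intensity of the myeloid list was 18608 to 83760 in the lymphomas, against 13376 to 234343 in all wild-type samples and 13376 to 24001 in wild-type replicates 2 to 5. Of 16 erythroid and platelet genes 2 fell slightly, Gp9 (-0.59, limma adjusted p = 0.0454) and Hba-a1 (-0.56, 0.0341). The Hba-a1 probe set read 3.58 to 3.86 in the lymphomas, against 3.98 to 4.70 in wild-type samples, near the floor. Of 13 fibroblast genes Pdgfrb fell (-0.53, limma adjusted p = 0.0438), a call lost against replicates 2 to 5 (0.0776), where Fn1 rose (4.25, limma adjusted p = 0.000288). The part of these cells in the member results was not tested, beyond the values without replicates 1 and 6 above.

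In fibroblasts, which do not carry the receptor, the 16 probe sets read 3.54 to 7.32 on the log2 scale. On all 12 MEF arrays 12 of the 16 were among the lowest 25% of the array, the exceptions being Cd3d, Cd3e, Cd4 1419696_at and Cd8a 1425335_at. MEF and T cell arrays were summarised by RMA separately, so only the percentile of a probe set on its own array is set side by side. Trat1 lay at percentiles 0.0221 to 21.8 in the lymphomas, 65.7 to 80.6 in wild-type CD8 cells and 0.411 to 2.69 in MEFs. Cd4 1419696_at lay at 32.6 to 38.8 in the lymphomas, 36.6 to 80.4 in wild-type CD8 cells and 35.5 to 39.3 in MEFs. Cd2 lay at 39.6 to 91.6 in the lymphomas, 85.5 to 98.7 in wild-type CD8 cells and 15.2 to 20.8 in MEFs.

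For 13 of the 16 probe sets, every lymphoma lay at a higher percentile than every MEF array, and the exceptions were Trat1 and both Cd4 probe sets. For wild-type CD8 cells this held for 14 of 16, the exceptions being the 2 Cd4 probe sets. The share of all probe sets for which this held was not counted, so neither count can be called large or small. Ezh2-deficient and wild-type MEFs differed by -0.05 to 0.22 on the log2 scale, and none of the 16 passed (limma, lowest adjusted p = 0.110), where 3.14% of all probe sets did (0.986% higher and 2.15% lower). An unadjusted p under 0.05 was met by 2, Cd4 1419696_at (0.18) and Cd247 1426079_at (0.22). MEFs deficient in both Snf5 and Ezh2 differed from wild-type MEFs by -0.14 to 0.05, and none of the 16 passed (limma, lowest adjusted p = 0.153; none met an unadjusted p under 0.05), where 25.9% of all probe sets did (12.1% higher and 13.8% lower). Both comparisons share their 3 wild-type arrays, because the wild-type arrays named for the double mutant repeat those named for the Ezh2 mutant.

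**Figure D4:**
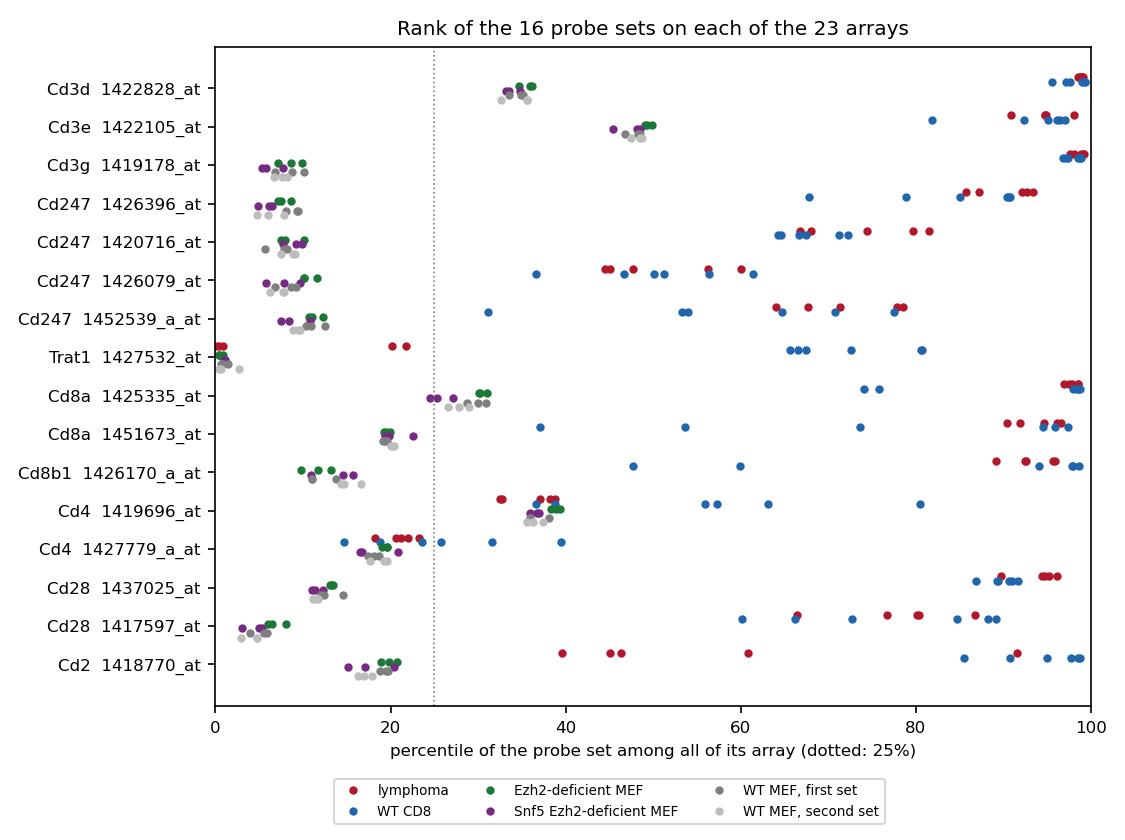
Percentile of each of the 16 probe sets among all of its own array, with 1 point per array for the lymphomas, wild-type CD8 cells and the 4 MEF groups; the dotted line marks 25%. Trat1 in the lymphomas lies at 0.0221 to 21.8, left of all wild-type CD8 samples, and Cd4 1419696_at in the lymphomas lies among the MEF arrays.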

How the data were processed

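RNA was hybridised to Affymetrix mouse arrays, and the authors preprocessed the scans with RMA per the labels; no source used here names its software or version. Values as deposited are RMA intensity on a linear scale, since they run far beyond the range of log2 values, and were log2-transformed here, although the design had taken them to be log2 already. They fall into 3 separately summarised blocks, 2 of MEF arrays and 1 of T cell arrays, and no test sets MEF against T cell arrays. The depth of an array is not a count; the number of arrays limits precision, and array medians were 8.04 to 8.37 for T cells and 7.26 to 7.32 for MEFs (log2). No 2 arrays were copies of each other, except that same-numbered wild-type MEF arrays of both sets differed by an SD of only 0.0219 to 0.0241 after an offset per probe set, against 0.137 to 0.152 for different numbers. They were merged into 3, leaving 9 distinct MEF arrays. The double-mutant arrays were shifted by the same offset, and all 9 were fitted in 1 model across both MEF blocks. An alternative fitted the 6 arrays of each set alone.

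After 64 control probe sets were left out of 22690, 22626 were tested with limma 3.58.1 (lmFit, eBayes) under R 4.3.3. Adjustment (Benjamini-Hochberg) ran over all of them, with a threshold of 0.05. T cell and MEF arrays were fitted separately. Of the probe sets, 20380 named 1 gene, 691 several and 1555 none, by the platform annotation, which can be old. The gene table and promoters were RefSeq's of GRCm38.p6, and 6 of the 10 members had a promoter entry. A gene was represented by its brightest probe set on the 11 T cell arrays. Pairs of members were tested by exact permutation over arrays (462 regroupings, smallest p 0.00216; 126 and 0.00794 without replicates 1 and 6). All member probe sets are named; from each of 12 further lists (230 symbols with the members, 175 measured) up to 3 called genes with the largest change each way are named, or the smallest p where none was called. Genes outside this rule (the receptor segments, Cd40lg, H2-Aa, Mpo, Itgax, Nfil3, Foxp3, Fn1, Icos, Cd5 and Cd6, and Ctla4 where it is set beside Cd28) were picked with their values in view. The members and lists were chosen with earlier results of these data known.

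On simulated data of the lymphoma comparison, limma recovered 46%, 86%, 92% and 100% of 50 probe sets changed by 1, 2, 3 and 7 on the log2 scale, and 38%, 66%, 86% and 98% against replicates 2 to 5. Far fewer probe sets were changed there than were called in the data, and noise was drawn independently for each sample. The shares therefore need not hold for the real comparison. Alternatives were an intensity trend, array weights, a filter on dim probe sets, quantile normalization, subtraction of array medians, a replicate block, other probe sets and other choices of samples.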

Additional observations from a re-analysis of the deposited data

How the results depend on the processing

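Against all wild-type samples 2 to 4 of 16 member probe sets passed as 1 sample at a time was left out, and 2 to 3 against replicates 2 to 5. Of all 22626 probe sets, 2311 to 3911 and 4283 to 5795 passed in these settings. In both MEF comparisons 0 members passed in every setting. Over the MEF settings, 158 to 784 of all probe sets passed for the Ezh2 mutant and 4519 to 5857 for the double mutant. Trat1 and Cd2 kept their direction and call in all 19 alternatives. Cd28 was called in 6 of 19, and not with array medians subtracted (0.58) or by its other probe set (0.10). The changes of genes that were never called in the comparison with all wild-type samples turned sign as follows, and the cause was not tested. Against replicates 2 to 5 they were -0.064 for Cd3d, -0.19 for Cd3e, -0.15 for Cd8a and -0.69 for Cd8b1. Against replicates 3 and 4 alone, chosen after the data were seen, they were -0.33 for Cd3d, -0.12 for Cd3e, -0.054 for Cd3g, -0.0013 for Cd247, -0.26 for Cd8a and -0.99 for Cd8b1, which then passed. Array weights gave -0.0028 for Cd3d and -0.011 for Cd3e. With 1 sample left out Cd3e ran from -0.064 to 0.34, and it was lowest without wild-type replicate 6. With 1 sample left out, the within-array difference of Cd8b1 and Cd8a, 0.01 with all samples, ran from -0.32 (without wild-type replicate 6) to 0.17. That of Cd247 and Cd3e ran from 0.26 to 0.57 and that of Cd4 and Cd8a from -3.74 to -2.59. Against replicates 2 to 5 the differences were -0.54, 0.36 and -1.89 in the same order. None of them passed there (exact permutation, lowest adjusted p = 0.143). No label says whether samples that share a replicate number are paired. Same-numbered lymphoma and wild-type samples deviated together with r = 0.22, 0.26, 0.08, 0.31 and 0.10, not all above 0.1, and 3 of 5 matched best by number. With the replicate number as a block, 2 of 16 passed against all wild-type samples and 3 of 16 against replicates 2 to 5. Of all 22626 probe sets, 3484 and 4376 passed there. Cd8b1 passed against replicates 2 to 5 at -0.67 (limma adjusted p = 0.0336). Cd3e was -0.064 and Cd28 0.54 (limma adjusted p = 0.107) with the block. The block left the MEF counts at 0. Arrays have no detection calls here, which limits what can be said of Trat1 in lymphomas and of members in MEFs.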

Other observations

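Among other surface receptors of T cells, a pair, chosen after seeing the values, split the lymphomas. Cd5, an inhibitory coreceptor that sits with the T cell receptor, read 7.71, 6.46, 11.84, 12.47 and 7.98 in lymphomas 1 to 5, against 6.94, 11.15, 11.64, 11.81, 10.93 and 6.79 in wild-type replicates 1 to 6. Cd6, its neighbouring relative, read 6.96, 7.03, 11.23, 12.76 and 6.97 in the lymphomas, against 6.95, 11.89, 12.44, 12.17, 11.13 and 7.25 in wild-type samples. Lymphomas 3 and 4 were high and lymphomas 1, 2 and 5 low in both, and neither gene passed the test (limma adjusted p = 0.797 for Cd5 and 0.566 for Cd6). Lymphomas 3 and 4 also had the lowest Smarcb1 and the lowest erythroid and platelet means, 5.85 and 5.59, against 7.31, 7.04 and 7.28 in lymphomas 1, 2 and 5. Over the probe sets that were bright on the T cell arrays, the same split was less clean. The SD of the difference was 0.489 between lymphomas 3 and 4 and 0.377 between lymphomas 1 and 5. Lymphoma 2 was nearest to lymphoma 1 (0.586), but lymphomas 2 and 5 (0.704) were further apart than lymphomas 3 and 5 (0.611). The other pairs across the split ran from 0.661 to 0.742. Icos, the receptor gene after Ctla4 on chromosome 1, read 11.54 to 12.93 in the lymphomas, against 9.79 to 11.17 in wild-type samples (limma adjusted p = 0.0064). No member value was flagged by a gap ratio test (Dixon) in the 32 groups of arrays examined. The ratio takes only the gap between an end value and its nearest neighbour, so samples that lie far off together mask each other. Wild-type replicates 1 and 6 lay low together in Cd8a and Cd8b1, so the test could not flag them there.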
